A study of Mus musculus with 8 samples.

Results

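Of the 23091 genes in the transcript tables, 7 were followed here by their symbols: Lpl, Plin2, Fabp3, Fabp5, Abca1, Abcg1 and Apoe. They are genes by which a cell frees, binds, stores and exports lipid, and they were chosen by earlier values from these same wells, the higher level of Lpl in A1/A2 and in Cx3cr1 wells among them. The mice were C57BL/6N, wild type, SPF-housed and untreated, and the cells came from their extraembryonic yolk sacs at embryonic day 9.5. Single cells stained for CD45 and CD11b were sorted as CD45+ into 384-well plates and read with mCEL-Seq2, which counts the 3' ends of transcripts with molecular identifiers, so that levels need no correction for gene length. There were 4 libraries of A1 and A2 cells and 4 of EMP cells, all of batch A, with 1223 of 1536 wells holding at least 1000 transcripts (568 A1/A2 and 655 EMP). The labels give neither the embryos behind a library nor which of its wells hold A1 and which A2 cells, so p-values measure the spread between libraries, which may be technical, and they say that the EMP libraries were not part of the published work.

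Lipoprotein lipase, encoded by Lpl, cuts the triglycerides of circulating lipoproteins at the cell surface and frees fatty acids for uptake; it is made by macrophages, fat and muscle. Inside the cell, the fatty acid binding proteins Fabp3 (known from heart and muscle) and Fabp5 (known from skin and macrophages) carry the fatty acids, and the perilipin Plin2 coats the lipid droplets in which they are stored as esters. The transporters Abca1 and Abcg1 hand cholesterol to lipoprotein particles, and apolipoprotein E, encoded by Apoe, carries lipid outside the cell and is taken up by receptors of the LDL receptor family. The yolk sac endoderm is known as the tissue that makes apolipoproteins for the early embryo, while erythromyeloid progenitors (EMP) give rise to Kit-positive A1 cells and these to Cx3cr1-positive A2 cells, the forerunners of tissue macrophages.

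Wells were sorted into classes by transcripts. A well lay inside the endoderm gate if its Apoa1 level was above 35.8 transcripts per 10000, which is 2 times the mean of 17.9 over all kept wells; the nearest well inside was at 35.846 and the nearest outside at 35.824. The gate held 57 A1/A2 wells (14, 21, 13 and 9 in libraries 1 to 4) and 163 EMP wells (31, 73, 22 and 37). Outside the gate, the A1/A2 libraries had 140 wells with Cx3cr1 and no Kit, 26 with Kit and no Cx3cr1 (3 to 8 per library), 42 with both and 303 with neither, and the EMP libraries had 6, 208, 19 and 259 such wells. A class set by 1 detected transcript follows depth: median totals in A1/A2 libraries were 30831 transcripts in Cx3cr1 wells, 9433 in Kit wells and 2711 in wells with neither, and 25566 in EMP Kit wells. Kept wells summed to 2558197 to 3559612 transcripts per A1/A2 library and 3888853 to 5418136 per EMP library. The labels were checked against markers: the 12 macrophage markers summed to 1161 to 1306 CPM (counts per 1000000 transcripts of the wells summed) in A1/A2 wells outside the gate and 82.5 to 128 CPM in EMP wells, and the 6 progenitor markers to 164 to 292 CPM against 488 to 699 CPM. Kit wells were mixed by such markers. Those of A1/A2 libraries had 145 to 711 CPM of macrophage, 37.8 to 42176 CPM of globin and 0 to 396 CPM of neutrophil markers. Progenitor markers summed to 253 to 754 CPM in them, and to 671 to 878 CPM in EMP Kit wells. Endothelial markers summed to 296 to 442 CPM in EMP Kit wells. Neither Kit class is therefore read as A1 cells or progenitors alone. Within the gate, Ptprc, which encodes the CD45 used for the sort, was at 16.5 to 45.9 CPM in A1/A2 libraries and 0 to 3.95 CPM in EMP libraries, against 92.5 to 110.2 and 6.61 to 21.2 CPM outside it. Endoderm markers were found in every class, at 6810 to 9668 CPM outside the gate in A1/A2 libraries and 8096 to 13559 CPM in EMP libraries, so a transcript in a well may come from its cell or from RNA of other cells, which cannot be told apart here.

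The promoters of 4 of the 7 genes are in the RefSeq table used here (build GRCm38.p6); Lpl, Fabp5 and Abcg1 are named only. Those of Abca1, Plin2 and Apoe are shown because these genes differed between endoderm and other wells in both groups of libraries. Each runs from 250 bases before the start site to 50 after it, on the minus strand, with capitals for the motifs found.
Abca1, chr4:53159846-53160145: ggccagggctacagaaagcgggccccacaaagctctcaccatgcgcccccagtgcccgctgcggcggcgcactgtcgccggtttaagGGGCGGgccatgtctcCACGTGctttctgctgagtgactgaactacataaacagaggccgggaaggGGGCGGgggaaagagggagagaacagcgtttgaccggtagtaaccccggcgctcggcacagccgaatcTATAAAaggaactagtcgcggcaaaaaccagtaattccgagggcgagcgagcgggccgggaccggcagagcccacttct
Plin2, chr4:86670010-86670309: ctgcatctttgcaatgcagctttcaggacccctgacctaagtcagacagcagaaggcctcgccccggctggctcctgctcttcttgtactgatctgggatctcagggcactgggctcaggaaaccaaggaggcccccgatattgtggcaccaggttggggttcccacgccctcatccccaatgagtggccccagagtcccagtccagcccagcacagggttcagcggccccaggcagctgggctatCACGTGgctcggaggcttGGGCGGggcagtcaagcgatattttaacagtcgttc
Apoe, first start site, chr7:19699139-19699438: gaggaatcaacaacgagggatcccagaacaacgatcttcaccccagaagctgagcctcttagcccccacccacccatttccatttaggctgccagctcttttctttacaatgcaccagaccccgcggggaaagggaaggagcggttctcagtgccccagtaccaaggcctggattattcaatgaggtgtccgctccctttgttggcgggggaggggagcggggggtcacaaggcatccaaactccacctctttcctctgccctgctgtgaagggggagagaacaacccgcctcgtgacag
Motifs were searched on both strands: the TATA box TATAAA (in 13.6% of 32851 promoters of the same length), the GC box GGGCGG (35.7%), the E-box CACGTG (7.15%, the same letters on both strands), the PU.1 site GAGGAAGT (3.20%), and AGGTCA repeated after a spacer of 4 bases of any kind (the form bound by LXR receptors, 0.0152%) or of 1 base (the form bound by PPAR receptors, 0.0396%). The Abca1 promoter held TATAAA at -29 from the start site, GGGCGG at -163 and -97 and CACGTG at -147. The Plin2 promoter held CACGTG at -4 and GGGCGG at 15, the Apoe window shown held none of the 6 motifs, another of the 3 Apoe start sites in the table (window from 19698572) held TATA box matches, overlapping each other, at -100 and -96, and no 2 matches overlapped in the 3 windows shown. Neither the spaced repeats nor GAGGAAGT occurred in those 3.

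Lpl, the extracellular lipase, was concentrated in the A1/A2 wells with Cx3cr1, whether Kit was found in them or not. Its level in wells with Cx3cr1 and no Kit was 1001.5, 918, 742 and 643 CPM in libraries 1 to 4. Wells with Kit and no Cx3cr1 had 151, 40.2, 90.6 and 94.2 CPM in the same libraries and 31.0, 31.3, 11.5 and 17.8 CPM in the EMP libraries. No library of one class overlapped another. For 13.7% of 9138 genes all 4 Cx3cr1 sums of the A1/A2 libraries lay above all 4 EMP Kit sums. Cx3cr1 wells held 61.1% of all Lpl transcripts of the A1/A2 libraries but 39.2% of all transcripts and 24.6% of the wells. Wells with both Cx3cr1 and Kit held a further 24.9%, with 19.7% of all transcripts. Their Lpl levels of 995, 987, 425 and 288 CPM overlapped those of the Cx3cr1 wells. Over all wells outside the gate the A1/A2 libraries had 832, 747, 446 and 483 CPM and the EMP libraries 48.2, 139, 25.04 and 19.8 CPM. EMP library 2 stands above the other EMP libraries, and 1 well held 28.5% of the Lpl transcripts of all EMP wells outside the gate. In a sum over wells, fewer cells of a type and less RNA per cell cannot be told apart.

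The differences of Lpl were known when the genes were chosen and are given without a test. The log2 fold change was 3.49 ± 0.66 (SE) for A1/A2 over EMP libraries outside the gate (4.27 without EMP library 2), 3.19 ± 0.25 for Cx3cr1 over Kit wells within A1/A2 libraries, and 5.25 ± 0.32 for Cx3cr1 wells of the A1/A2 libraries over Kit wells of the EMP libraries. The difference between Cx3cr1 and Kit wells was smaller with every well thinned to 1000 transcripts (1.46 ± 0.56) and without wells more than 3-fold deeper than their library's median (1.28 ± 0.51). At a fixed 10000 transcripts per well, Lpl was found in 85 of 93 Cx3cr1 wells of the A1/A2 libraries (91.4%) and in 30 of 196 Kit wells of the EMP libraries (15.3%), with 47 and 12 shallower wells left out. Within the A1/A2 libraries it was found in 8 of 13 Kit wells (61.5%) and in 31 of 39 wells with both genes (79.5%). The endoderm wells had it in 22 of 42 A1/A2 wells (52.4%) and 24 of 136 EMP wells (17.6%). Whether the Lpl transcripts of Kit wells were made in their own cells was not tested. Single Cx3cr1 wells of that depth ranged from 0 to 36.5 Lpl transcripts per 10000 with a median of 8.19, and 2 of the 93 had none.

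The level of Lpl was also set against macrophage markers. Per 100 transcripts of the 10 macrophage markers not used to set a class, Lpl had 65.1 ± 16.8 transcripts in Cx3cr1 wells of the A1/A2 libraries (SD, n = 4), 81.9 ± 41.7 in A1/A2 wells with both Cx3cr1 and Kit, 53.5 ± 41.9 in A1/A2 wells with neither gene, 59.4 ± 26.4 in EMP wells with neither, 52.2 ± 26.6 in A1/A2 endoderm wells, 46.9 ± 16.8 in EMP endoderm wells and 34.99 ± 13.6 in EMP Kit wells. Outside the gate the ratio was 63.4 ± 19.9 in A1/A2 libraries and 64.0 ± 50.7 in EMP libraries, with overlapping ranges of 43.3 to 81.7 and 27.6 to 139. The levels in CPM stood apart, as 15.3% of genes did in this direction. The 3 A1/A2 Kit sums of at least 5 wells stood at 13.3 to 34.0, below all 4 Cx3cr1 sums, which ranged from 49.1 to 84.9. These Kit sums rest on 35, 135 and 47 marker transcripts, against 1215 to 1892 in the Cx3cr1 sums. EMP wells with neither gene held 25 to 152 per library, and EMP endoderm wells 26 to 123. The genes whose levels were most like that of Lpl over 33 sums of a library and a class, out of 2958 genes that averaged 50 CPM or more, were Csf1r, the receptor of the main macrophage growth factor (Pearson r = 0.945), the myeloid transcription factor gene Irf8 (0.922) and Pou2f2 (0.886). The sums share libraries and depth, so these are descriptions.

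**Figure D1:**
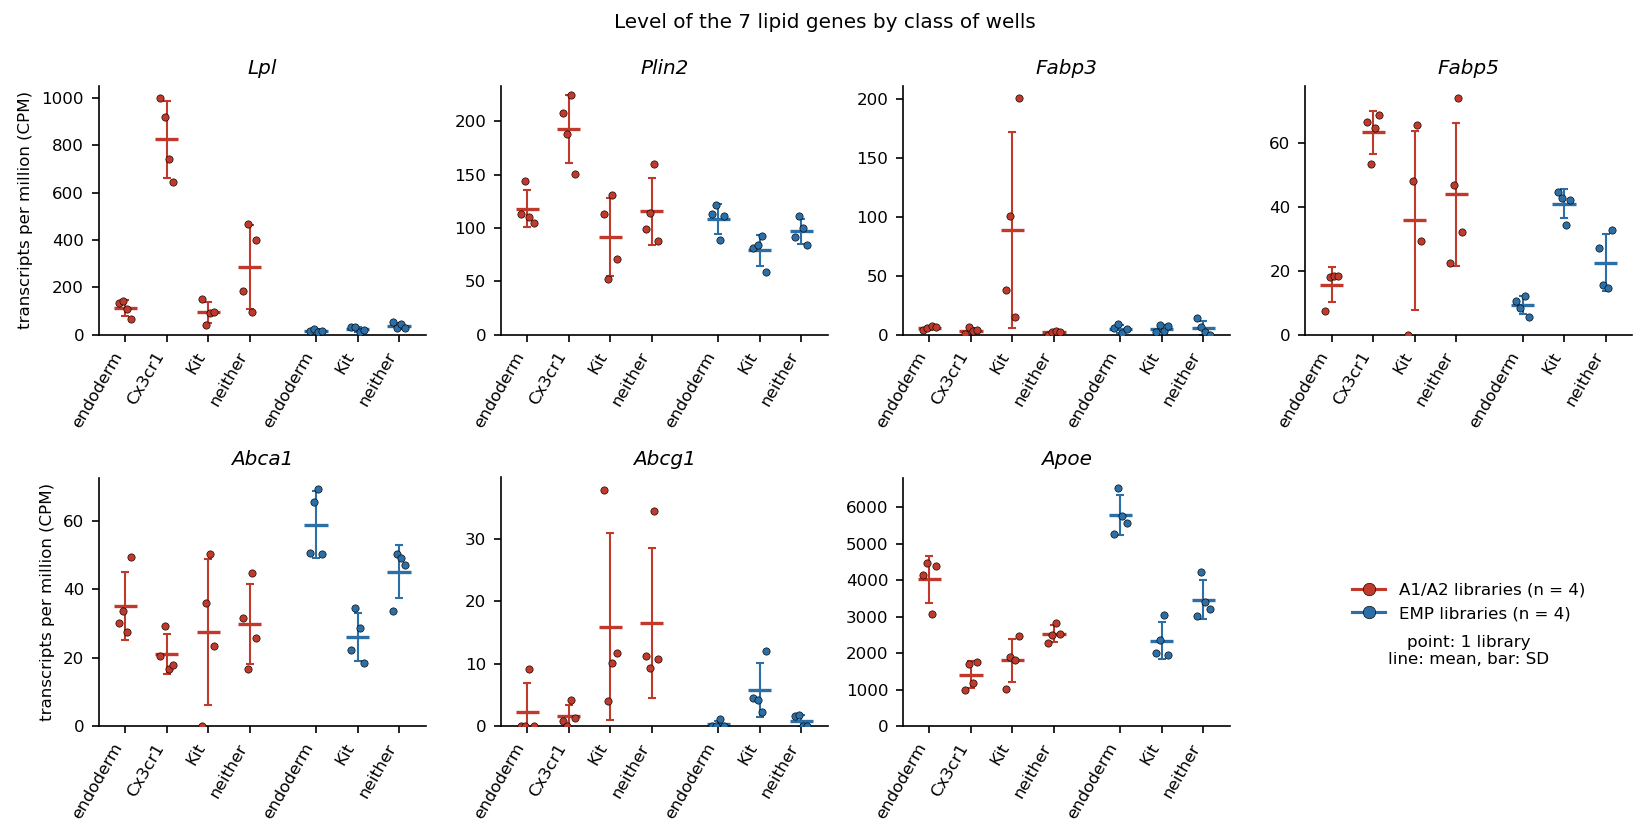
Level of each of the 7 genes in CPM (vertical axes, linear) by class of wells, A1/A2 libraries in red and EMP libraries in blue; a point is 1 library, a line the mean and a bar the SD. Lpl reaches 643 to 1001.5 CPM in Cx3cr1 wells and 11.5 to 31.3 CPM in EMP Kit wells, and Apoe is highest in the endoderm wells of both groups. Wells with both Cx3cr1 and Kit, and EMP wells with Cx3cr1 and no Kit, are not shown.

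Plin2, the coat protein of lipid droplets, was higher in A1/A2 than in EMP libraries outside the endoderm gate, and higher in Cx3cr1 than in Kit wells. Outside the gate it had 165, 159, 177 and 129.9 CPM in A1/A2 libraries, against 83.5, 104, 95.8 and 66.6 CPM in EMP libraries. All 4 A1/A2 libraries lay above all 4 EMP libraries, which 15.3% of the genes tested did as well. The log2 fold change was 0.82 ± 0.14 (SE; edgeR's quasi-likelihood test, Benjamini-Hochberg adjusted p = 0.000426), where 29.2% of 10302 genes passed. The call held in all 21 alternative settings, with fold changes of 0.60 to 1.17. All 12 macrophage markers were higher in the same comparison (median 4.29 on the log2 scale). Their part in the results on Plin2 and Fabp5 was not tested. Per 100 transcripts of the 10 macrophage markers, Plin2 had the opposite order, with 15.9 ± 1.9 transcripts in A1/A2 libraries and 108 ± 28.4 in EMP libraries outside the gate (SD, n = 4 each). The markers rose more than Plin2, so this order follows from their rise and is no separate result on Plin2.

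Cx3cr1 wells of the A1/A2 libraries had 207, 188, 224 and 150.4 CPM of Plin2, against 80.8, 84.5, 92.0 and 58.6 CPM in Kit wells of the EMP libraries. The groups stood apart, as 13.7% of genes did in this direction, and the fold change was 1.29 ± 0.15 on the log2 scale (edgeR adjusted p = 6.83e-06), where 26.6% of 9138 genes passed. Kit wells within A1/A2 libraries had 113, 52.2, 131 and 70.7 CPM, below the Cx3cr1 wells of the same library in 4 of 4 libraries (1.04 ± 0.28, edgeR adjusted p = 0.00758, with 6.37% of 6801 genes called, 2.98% higher and 3.38% lower). Per 100 macrophage marker transcripts the ratio was 14.96 ± 2.0 in Cx3cr1 wells, against 27.3 ± 9.1 in A1/A2 Kit wells (n = 3) and 126.3 ± 39.7 in EMP Kit wells. Here too the markers differed more than Plin2 (medians of 1.95 and 5.61 on the log2 scale), so the order is no separate result. The call between Cx3cr1 and Kit wells of the A1/A2 libraries was lost without A1/A2 library 2 (0.206) or 4 (0.0693), with DESeq2 (0.0898) and with the gate at the mean of Apoa1 (0.180). Genes whose levels were most like that of Plin2 were the leukocyte actin-bundling gene Lcp1 (r = 0.827), Samhd1, which encodes a nucleotide hydrolase (0.793), and Snx2, a sorting nexin gene (0.790).

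**Figure D2:**
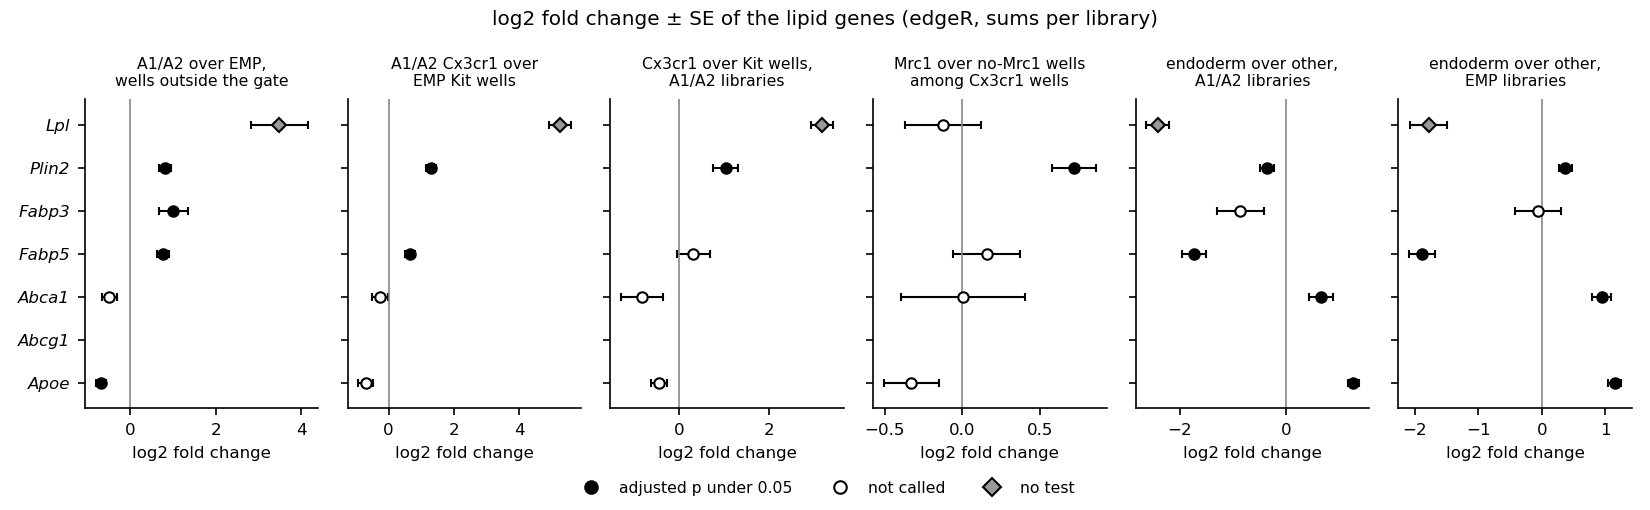
Log2 fold changes of the genes that could be fitted (horizontal axes, different ranges) with their SE, in 6 comparisons; filled points passed an adjusted p of 0.05 in edgeR, open points did not and grey diamonds carry no test. Plin2 lies above 0 in the 4 comparisons outside the endoderm gate and on both sides of 0 in the last 2.

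Of the fatty acid binding protein genes, Fabp5 was higher in A1/A2 libraries. It had 53.7, 51.7, 63.9 and 62.9 CPM outside the gate in A1/A2 libraries, against 37.3, 30.7, 28.4 and 38.8 CPM in EMP libraries. The groups did not overlap, as for 15.3% of genes in this direction. Fabp5 was higher in A1/A2 libraries by 0.76 ± 0.14 on the log2 scale (edgeR adjusted p = 0.000632), where 29.2% of 10302 genes passed. Without wells above 3 times the median total the value was 0.56 (edgeR adjusted p = 0.381). In Cx3cr1 wells of the A1/A2 libraries Fabp5 had 66.5, 53.4, 64.6 and 68.7 CPM, against 44.7, 42.8, 34.5 and 42.02 CPM in EMP Kit wells. The difference was 0.66 ± 0.15 (edgeR adjusted p = 0.00265, and 0.359 without wells above 3 times the median total), where 26.6% of 9138 genes passed. A1/A2 Kit wells ranged from 0 to 65.5 CPM, and the difference of Cx3cr1 from these Kit wells was 0.32 ± 0.36 (edgeR adjusted p = 0.711). Its nearest genes were Ikzf1, a transcription factor gene of blood cells (r = 0.880), the adhesion receptor gene Cd44 (0.875) and Ppp1r18 (0.874).

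Fabp3 was low and sat in few wells. Outside the gate it had 11.8, 13.5, 4.08 and 14.2 CPM in A1/A2 libraries, against 6.02, 7.07, 3.83 and 5.20 CPM in EMP libraries, and the ranges overlapped through A1/A2 library 3. The fold change of 1.005 ± 0.34 on the log2 scale passed (edgeR adjusted p = 0.0338), but 1 well held 28.9% of the A1/A2 transcripts outside the gate, and without it the value was 0.57 (adjusted p = 0.315). Leaving out A1/A2 library 1, 2 or 4 or EMP library 1 or 3 also ended the call (adjusted p = 0.0538 to 0.116), as did adding the endoderm wells (0.0885). Of the 125 Fabp3 transcripts of the A1/A2 libraries, 50.4% lay in the Kit wells, which hold 5.23% of all transcripts. The Cx3cr1 wells had 0.85, 6.23, 3.12 and 3.82 CPM, against 37.8, 100.7, 15.1 and 201 CPM in those Kit wells, and 1 well held 50.8% of the transcripts of the Kit class. Kit wells stood higher in 4 of 4 libraries, but Fabp3 did not pass the filter on low counts in that comparison and was not tested. The nearest genes by level were Txndc12 (r = 0.785), the basement membrane collagen gene Col4a2 (0.736) and Cited2 (0.698).

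Of the sterol exporters, Abca1 was lower in A1/A2 libraries without passing the test, and Abcg1 was too low to test. Outside the gate Abca1 had 24.9, 24.4, 25.4 and 17.2 CPM in A1/A2 libraries, against 26.1, 40.1, 34.3 and 25.99 CPM in EMP libraries. The groups did not overlap, as for 12.0% of genes in this direction, with a difference of -0.48 ± 0.18 on the log2 scale (edgeR adjusted p = 0.0521). It passed without EMP library 4 (0.0262), without the filter on low counts (0.0315) and with the endoderm wells added (0.00727), and without wells above 3 times the median total the difference was 0.50 (0.279). Cx3cr1 wells had 20.5, 29.4, 16.7 and 17.8 CPM and EMP Kit wells 22.4, 34.4, 28.8 and 18.5 CPM, which overlapped (-0.27 ± 0.24, edgeR adjusted p = 0.437). A1/A2 Kit wells had 0, 36.1, 50.4 and 23.6 CPM, and the difference of Cx3cr1 from these was -0.82 ± 0.47 (edgeR adjusted p = 0.355). Abcg1 had 3.05, 3.26, 13.6 and 4.39 CPM outside the gate in A1/A2 libraries, against 3.15, 2.95, 1.58 and 8.98 CPM in EMP libraries, again with overlap. In Cx3cr1 wells it had 0.85, 0, 4.17 and 1.27 CPM, against 37.8, 4.01, 10.1 and 11.8 CPM in the Kit wells of the same libraries, higher in the Kit wells in 4 of 4 libraries. These levels rest on 7 transcripts in Cx3cr1 wells and 6 in Kit wells, so no order is read from them. Of the 63 Abcg1 transcripts of the A1/A2 libraries, 35 lay in wells with neither Cx3cr1 nor Kit, which hold 16.4% of all transcripts. At 10000 transcripts per well Abcg1 was found in 0 of 93 Cx3cr1 wells, and in 8 of 196 EMP Kit wells.

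Abca1 levels were most like those of Fgb, which encodes a fibrinogen chain (r = 0.834), the fucosidase gene Fuca2 (0.832) and the peptidase gene Pepd (0.832). Those of Abcg1 were most like the granule proteoglycan gene Srgn (0.741), the lysozyme gene Lyz1 (0.620) and B2m (0.554).

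Apoe, the lipid carrier, was found in every class of wells and was highest inside the endoderm gate. Outside it, Apoe had 1387, 1914, 1674 and 1894 CPM in A1/A2 libraries, against 2382, 3060.5, 3137 and 2245 CPM in EMP libraries. The groups stood apart, as 12.0% of genes did in this direction. Apoe was lower in A1/A2 libraries, with a log2 fold change of -0.68 ± 0.13 (edgeR adjusted p = 0.000931), where 29.2% of 10302 genes passed. Of 12 endoderm markers 5 fell with it, and their part in the result was not tested. The call did not hold under the settings on depth. With each well thinned to 1000 transcripts the difference was 0.01 (edgeR adjusted p = 0.986). Without wells above 3 times their library's median total it was 0.35 (edgeR adjusted p = 0.193). These settings also change the mix of cells summed. Median totals outside the gate were 5356 transcripts in A1/A2 wells and 16185 in EMP wells, but 30831 in A1/A2 Cx3cr1 wells. Cx3cr1 wells of the A1/A2 libraries had 995, 1710.5, 1195 and 1759 CPM and EMP Kit wells 2012, 2369, 3040.2 and 1939 CPM, without overlap, as for 13.3% of genes in this direction (-0.71 ± 0.22, edgeR adjusted p = 0.0527). The difference passed in 12 of 21 alternatives, among them DESeq2 size factors (0.0425), library totals (0.0404), DESeq2 (0.00182) and leaving out A1/A2 library 4 (0.021). Here too the difference was 0.03 at 1000 transcripts per well and 0.35 without the deep wells. Kit wells of the A1/A2 libraries had 1021, 1909, 1815 and 2466 CPM, and the difference of Cx3cr1 from Kit wells there was -0.44 ± 0.18 (edgeR adjusted p = 0.125; 0.0319 without library 1). Apoe levels were most like those of the imprinted gene Phlda2 (r = 0.963), Fgb (0.957) and the claudin gene Cldn6 (0.956).

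Inside the endoderm gate Apoe had 4132, 4470.1, 3084 and 4396 CPM in A1/A2 libraries and 5276, 6537, 5767 and 5555 CPM in EMP libraries. Each endoderm sum lay above the other wells of its library, by 1.26 ± 0.10 on the log2 scale in A1/A2 libraries (edgeR adjusted p = 5.74e-07) and 1.15 ± 0.10 in EMP libraries (8.12e-07). Without wells above 3 times the median total the A1/A2 value was 0.35 (adjusted p = 0.367). In these fits 44.1% and 51.6% of 10548 genes passed. Single endoderm wells with at least 10000 transcripts had a median of 41.4 Apoe transcripts per 10000 in A1/A2 libraries and 60.9 in EMP libraries, against 7.01 in A1/A2 Cx3cr1 wells and 16.1 in EMP Kit wells.

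Set against the 11 endoderm markers that did not set the gate, Apoe had the opposite order. Endoderm wells had 16.3 ± 3.0 Apoe transcripts per 100 marker transcripts in A1/A2 libraries and 23.9 ± 2.5 in EMP libraries (SD, n = 4 each), against 25.1 ± 5.4 in A1/A2 Cx3cr1 wells and 32.4 ± 4.8 in EMP Kit wells. All 4 Cx3cr1 sums (21.6 to 33.0) lay above all 4 endoderm sums of the same libraries (12.1 to 18.6), and all 4 EMP Kit sums (28.1 to 37.5) above the EMP endoderm sums (21.3 to 27.3). Apoa1, which the gate selected for, had the other order, with 20.2 ± 1.3 against 15.3 ± 1.1 in A1/A2 Cx3cr1 wells. Whether the Apoe transcripts of wells outside the gate were made in their own cells was not tested.

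**Figure D3:**
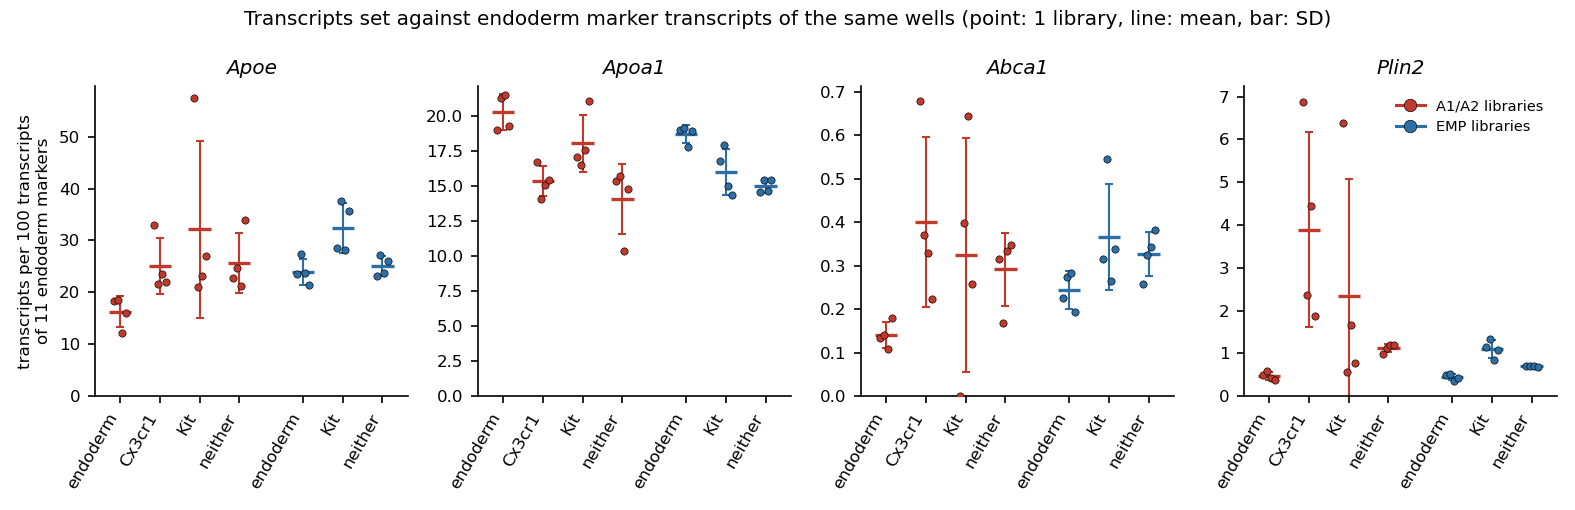
Transcripts of Apoe, Apoa1, Abca1 and Plin2 per 100 transcripts of 11 endoderm markers in the same wells (vertical axes, linear), by class of wells, A1/A2 libraries in red and EMP libraries in blue; a point is 1 library, a line the mean and a bar the SD. The Apoe ratio is 12.1 to 18.6 in A1/A2 endoderm wells and 21.6 to 33.0 in A1/A2 Cx3cr1 wells. The Kit point of A1/A2 library 1 rests on 3 wells.

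The other genes split by their direction at the endoderm gate. Abca1 was higher in endoderm wells, with 30.1, 33.6, 27.5 and 49.4 CPM in A1/A2 libraries and 50.6, 65.7, 69.2 and 50.3 CPM in EMP libraries. Its log2 fold change over other wells was 0.65 ± 0.22 in A1/A2 libraries (edgeR adjusted p = 0.0170; 0.32 and adjusted p = 0.287 without library 4, -1.15 and adjusted p = 0.329 without wells above 3 times the median total) and 0.94 ± 0.15 in EMP libraries (2.45e-06). Fabp5 was lower there, with 7.52, 18.2, 18.4 and 18.5 CPM in A1/A2 libraries and 10.7, 8.33, 12.1 and 5.65 CPM in EMP libraries. Its fold changes were -1.74 ± 0.23 (edgeR adjusted p = 1.46e-07) and -1.89 ± 0.20 (2.46e-09), and every endoderm sum lay below the other wells of its library. Lpl was lower too, with 135, 142, 107 and 67.95 CPM in A1/A2 endoderm wells and 16.4, 23.7, 9.89 and 15.2 CPM in EMP endoderm wells. Its fold change was -2.42 ± 0.21 in A1/A2 libraries and -1.78 ± 0.30 in EMP libraries (-0.55 with the gate at the mean of Apoa1, -1.14 without EMP library 2), given without a test because the other wells include the Cx3cr1 wells whose high Lpl was known. Macrophage markers moved with it: 12 of 12 were lower in A1/A2 endoderm wells, and 7 were lower and 1 higher in EMP endoderm wells, where Adgre1 and C1qa were at 0; their part in the result was not tested. Fabp3 did not pass, at -0.86 ± 0.44 in A1/A2 libraries (edgeR adjusted p = 0.114) and -0.06 ± 0.36 in EMP libraries (0.908).

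Plin2 was the 1 gene of 5 tested whose endoderm difference itself differed between the groups of libraries. Endoderm wells had 113, 144, 110.2 and 105 CPM in A1/A2 libraries and 113, 122, 89.0 and 111 CPM in EMP libraries, so their ranges overlapped, while the other wells of the groups stood apart. Against those other wells, Plin2 was lower in A1/A2 endoderm wells, with a log2 fold change of -0.36 ± 0.12 (edgeR adjusted p = 0.0176; 0.0574 without A1/A2 library 1, 0.165 without library 3 and 0.402 without wells above 3 times the median total; the value was -2.37 at 1000 transcripts per well). It was higher in EMP endoderm wells by 0.37 ± 0.11 (edgeR adjusted p = 0.00461; 0.0529 with DESeq2, 0.0756 without EMP library 4 and 0.770 at 1000 transcripts per well). The difference between these effects was -0.74 ± 0.17 (edgeR adjusted p = 0.0157), where 1.44% of 10548 genes passed, 0.654% above 0 and 0.787% below it. It was lost with DESeq2 (0.0599), without the library block (0.0847), at 1000 transcripts per well (0.587), without the deep wells (0.203) and without A1/A2 library 1 (0.0799) or EMP library 2 (0.0504). For the other 4 genes tested the difference did not pass, with 0.11 for Apoe (edgeR adjusted p = 0.842), and for Lpl, not tested, it was -0.63 ± 0.39 (-1.30 without EMP library 2).

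Among Cx3cr1 wells of the A1/A2 libraries, those with a transcript of Mrc1, the mannose receptor gene of many tissue macrophages, had more Plin2. Levels were 249, 232, 246 and 165 CPM in 17, 16, 16 and 19 wells with Mrc1, against 148, 121, 124 and 102 CPM in 23, 16, 11 and 22 wells without it. Mrc1 wells were higher in 4 of 4 libraries, by 0.72 ± 0.14 on the log2 scale (edgeR adjusted p = 0.00953), where 0.431% of 6736 genes passed and 0.252% were higher. The call was lost with DESeq2 (0.321), without the library block (0.153) and without A1/A2 library 1 (0.0972) or 2 (0.123). Depth moved with it: the median totals were 36275 to 59351 transcripts with Mrc1 and 4657 to 24662 without. The 12 macrophage markers summed to 1583 to 2269 CPM against 845 to 1266 CPM, but this sum includes Mrc1, which the split sets to 0. Of 9 macrophage markers tested, Mrc1 not among them, 2 were higher, 1 was lower and 6 were not called. The part of depth and of these markers in the result was not tested. At 10000 transcripts per well the share of wells with Plin2 ran the other way, 43 of 60 with Mrc1 (71.7%) and 28 of 33 without (84.8%), so no order of shares is read.

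Lpl did not follow the Mrc1 split. It had 768, 995, 777 and 658 CPM in wells with Mrc1, against 1330.5, 803, 577 and 596 CPM in wells without, lower with Mrc1 in library 1 and higher in the others (-0.13 ± 0.24, edgeR adjusted p = 0.986). Apoe (-0.33 ± 0.18, edgeR adjusted p = 0.862), Fabp5 (0.16 ± 0.22, adjusted p = 0.977) and Abca1 (0.01 ± 0.40, adjusted p = 1) also did not pass, and a miss does not show equal levels. At 1000 transcripts per well Apoe was lower with Mrc1, at -1.10 (adjusted p = 9.12e-07).

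**Figure D4:**
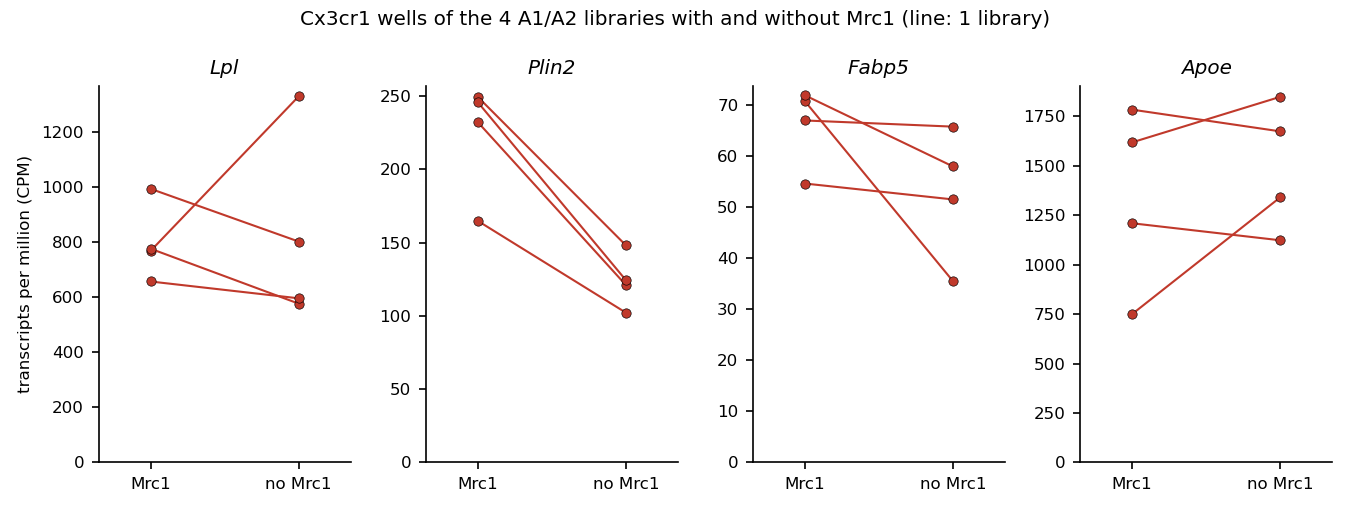
Levels of Lpl, Plin2, Fabp5 and Apoe in CPM (vertical axes, linear, from 0) in Cx3cr1 wells with Mrc1 (left) and without it (right); each line joins the sums of 1 A1/A2 library. Plin2 is higher with Mrc1 in 4 of 4 libraries, and Lpl is lower with Mrc1 in library 1, at 768 against 1330.5 CPM.

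Shares of wells at a fixed 1000 transcripts separated the groups for Lpl and Plin2. Lpl was found in 26.3% ± 7.03 of A1/A2 wells (SD, n = 4, range 21.3 to 36.4%) and 4.74% ± 0.832 of EMP wells (3.95 to 5.88%). In the endoderm wells of these groups the shares were 7.81% and 3.29%. Plin2 was found in 12.4% ± 0.970 of A1/A2 wells (11.4 to 13.6%) and 7.01% ± 2.26 of EMP wells (4.12 to 9.60%). Of 15236 genes, 2.88% had all A1/A2 libraries above all EMP libraries in this way and 1.98% had them all below. Without thinning, when EMP wells are deeper, Lpl was found in 64.7% against 33.6% and Plin2 in 54.5% against 62.8%, so that the order of Plin2 turns with depth. The other 5 genes overlapped between groups: Apoe was in 80.5% ± 8.78 of A1/A2 wells and 87.9% ± 2.56 of EMP wells, Abca1 in 3.86% ± 1.74 and 3.61% ± 1.48, Fabp5 in 2.84% ± 2.26 and 2.51% ± 1.21, and Fabp3 in 0.514% ± 0.349 and 0.141% ± 0.282. Abcg1 was in 1.41% ± 1.38 of A1/A2 wells and in 0 of 655 EMP wells, which limits wells with a transcript at this depth to 0.458%, counting error only. At full depth it was found in 6.39% ± 4.75 of A1/A2 wells and 4.71% ± 2.51 of EMP wells, so the 0 is a limit of depth and does not show that the gene was absent.

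**Figure D5:**
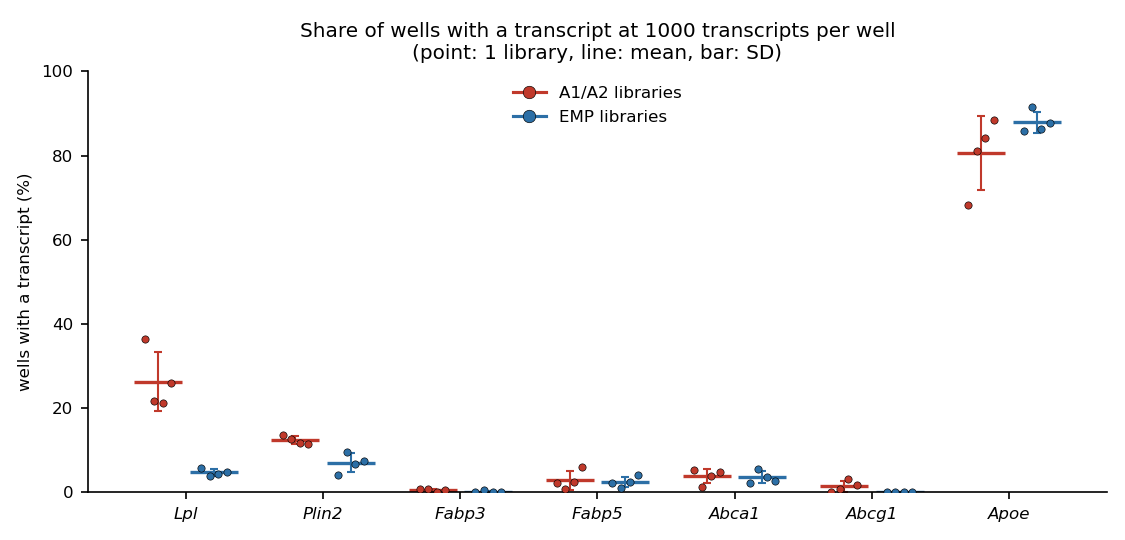
Share of wells with a transcript of each gene (vertical axis, percent) after thinning each well to 1000 transcripts, A1/A2 libraries in red and EMP libraries in blue; a point is 1 library, a line the mean and a bar the SD. Lpl (21.3 to 36.4% against 3.95 to 5.88%) and Plin2 stand apart between the groups.

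Of 109 genes in 8 lists of lipid genes, 76 were tested outside the gate, and 4 rose and 10 fell in A1/A2 over EMP libraries (18.4% called, against 29.2% of all genes). Among partners of lipoprotein lipase 1 of 6 rose: Angptl4, which encodes a secreted inhibitor of the lipase (1.44 ± 0.17 on the log2 scale, edgeR adjusted p = 8.99e-06). Among uptake receptors 2 of 9 rose and 2 fell, led by Lrp1, a receptor for Apoe-bearing particles (1.79 ± 0.21, adjusted p = 1.01e-05), and Scarb1, a receptor for high-density lipoprotein (0.45 ± 0.11, adjusted p = 0.00537). Of 11 lipid droplet genes edgeR called 0 (2 at an unadjusted p under 0.05, and 1 called by DESeq2), with a median of -0.31 against -0.04 over all genes.

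Other members of these lists were lower in A1/A2 libraries. Npc1, which moves cholesterol out of lysosomes, fell by 0.53 on the log2 scale (edgeR adjusted p = 0.0155) as the 1 of 6 efflux genes, the fatty acid activating gene Acsl3 by 0.45 (adjusted p = 0.0150) as the 1 of 7 in its list, and the coactivator gene Ppargc1a by 1.18 (adjusted p = 0.0190) as the 1 of 10 regulators. Of 17 cholesterol synthesis genes 1 rose and 3 fell, with Stard4, a sterol carrier gene, at -0.77 ± 0.18 (edgeR adjusted p = 0.00673) and Fdps, a gene of the mevalonate pathway, at 0.89 ± 0.26 (adjusted p = 0.0198). Of 10 fatty acid oxidation genes 2 fell, Acadm (-0.41 ± 0.12) and Cpt2 (-0.50 ± 0.15). Between Cx3cr1 wells of the A1/A2 libraries and Kit wells of the EMP libraries 5 of 67 rose and 3 fell (11.9%, against 26.6% of all genes), with Angptl4 at 1.52 ± 0.21, Lrp1 at 2.40 ± 0.26, Scarb1 at 0.65 ± 0.17, Fdps at 0.82 ± 0.29, Stard4 at -0.77 ± 0.20, the droplet gene Hilpda at -0.77 ± 0.27 and Cpt2 at -0.57 ± 0.20 on the log2 scale. DESeq2 called 5 of the 67, with 0 in the lists of Hilpda and Cpt2, whose calls were lost. The medians of the 8 lists ran from -0.33 to 0.20, against -0.01 over all genes.

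At the endoderm gate more lipid genes were called higher than lower. Of 77 lipid genes tested, 40 were higher and 6 lower in endoderm wells of the A1/A2 libraries (59.7% called, against 44.1% of all genes, of which 21.8% were higher), and 43 were higher and 9 lower in those of the EMP libraries (67.5%, against 51.6% of all genes, of which 25.5% were higher). Of 11 lipid droplet genes 6 rose in A1/A2 libraries and 7 in EMP libraries, where 1 fell, and of 6 efflux genes 4 and 5 rose. Of 17 cholesterol synthesis genes 5 rose in each group of libraries, and 2 fell in A1/A2 and 3 in EMP libraries. Angptl4 fell by 2.03 on the log2 scale in A1/A2 libraries and by 3.30 in EMP libraries, as Lpl did, while Npc1 rose by 1.39 ± 0.14 and 1.04 ± 0.10 and Stard4 by 1.37 ± 0.14 and 0.77 ± 0.11. The endoderm effect differed between the groups for 1 of the 77 genes, Scarb1 (-0.70 ± 0.16, edgeR adjusted p = 0.0201), where 1.44% of all genes passed, and DESeq2 called 0 of the 77. Within A1/A2 libraries, Cx3cr1 against Kit wells gave 1 higher and 4 lower of 45 (11.1%, against 6.37% of all genes), where DESeq2 called 1. Among these, named after their values were seen, were Sqle at 2.13, Stard4 at -1.55, Soat2 at -1.43 and Lsr at -1.25 on the log2 scale. Between Cx3cr1 wells with and without Mrc1 edgeR called 0 of 45 (2 at an unadjusted p under 0.05, and 0 by DESeq2).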

How the data were processed

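The deposited tables hold, for 192 wells in each of 8 libraries, estimated counts of transcripts per gene from mCEL-Seq2: the authors corrected the counts of molecular identifiers for identifiers used more than once, and undoing that correction with 4096 identifiers gave whole numbers (within 1e-06). No scaling by depth was found in them. The submitters' processing notes name BWA (0.6.2-r126) and Seurat; what each did, the genome build and the annotation were not given in the sources used here. A table of the whole series repeats 689 of the wells and was not used, and 0 columns belonged to other series.

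Wells with at least 1000 transcripts were kept. No doublet caller was run. Transcripts were summed over the wells of a class in each library, rounded to whole counts, and tested with edgeR 4.0.16 (R 4.3.3; TMM scaling, filterByExpr, robust quasi-likelihood fit), with Benjamini-Hochberg adjustment over all genes tested and calls at 5%. Ratios needed at least 5 wells, except that ratios to endoderm markers kept the Kit sum of A1/A2 library 1, with 3 wells. Comparisons within libraries had the library as a block. Printed levels are plain CPM of the sums, fold changes are after TMM scaling, and the SE is the absolute fold change over the root of the F statistic. Shares were compared after thinning each well to a fixed number of transcripts, with no test. Intervals and floors cover counting error only.

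The 7 genes and all lists were chosen with earlier results of these data known. Besides these 7, the text names up to 2 called genes with the smallest p from each lipid list in the A1/A2 against EMP and the Cx3cr1 against EMP Kit comparisons, and the 3 genes most alike in level to each of the 7. Alternatives were DESeq2 1.42.0 and its size factors, other filters, depths, gates and blocks, and leaving out each library. Library totals without TMM, and leaving out the well with most of a gene's transcripts, were added after seeing the data. Each fit was tested on simulated data with 200 genes changed 4-fold. The share recovered ran from 58.5% (Cx3cr1 against Kit wells in A1/A2 libraries) to 83.5% (A1/A2 Cx3cr1 against EMP Kit wells). For the endoderm fit the A1/A2 effect was scored, at 64.0%, and the EMP effect and the difference of the effects were not.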

Additional observations from a re-analysis of the deposited data

Results flagged for a closer look

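Of 63 groups of 4 libraries, 6 had 1 library standing apart from the other 3 by Dixon's criterion, where chance gives about 1 in 20, or 3.15. That rate does not hold where 3 libraries are at 0, since any transcript in the other one then counts as apart. Abcg1 in endoderm wells and the Fabp3 share are such cases, so 6 is not read against 3.15. Abca1 outside the endoderm gate was at 17.2 CPM in A1/A2 library 4, against 24.4 to 25.4 CPM in the other A1/A2 libraries. Abcg1 outside the gate was at 13.6 CPM in A1/A2 library 3, against 3.05 to 4.39 CPM. Fabp5 in endoderm wells was at 7.52 CPM in A1/A2 library 1, against 18.2 to 18.5 CPM. Abcg1 in endoderm wells was at 9.17 CPM in A1/A2 library 3 and at 1.10 CPM in EMP library 3, with 0 in the other 3 libraries of each group. Fabp3 was found in 0.565% of the wells of EMP library 2 at 1000 transcripts per well, against 0 in the other EMP libraries.

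The effect of the endoderm gate on Plin2 differed between the groups by -0.74 on the log2 scale (interaction in edgeR, adjusted p = 0.0157). Plin2 was lower in endoderm wells of the A1/A2 libraries (-0.36) and higher in those of the EMP libraries (0.37).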

How the results depend on the processing

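Of 698 alternative fold changes 614 kept their direction and side of the threshold, 31 lost a call, 23 gained one, 26 changed sign and 4 without a test moved; of 77 share differences 60 kept theirs, 7 moved and 10 changed sign. The cause of these changes was not tested. The settings on depth had the widest effect, and they also change which cells weigh in a sum. Library medians were 3763 to 9412 transcripts in A1/A2 and 16856 to 21921 in EMP libraries. The cut at 3 times the median thus fell lower in A1/A2 libraries, where Cx3cr1 wells had a median of 30831. With each well thinned to 1000 transcripts, edgeR called 101 genes between A1/A2 and EMP libraries outside the gate, 3 between Cx3cr1 and Kit wells, 51 between A1/A2 Cx3cr1 and EMP Kit wells, 171 and 390 at the endoderm gate in the A1/A2 and EMP libraries, and 0 for the difference of these effects (96 of 1795 at an unadjusted p under 0.05). Apoe was then at 0.0098 on the log2 scale outside the gate and 0.029 against EMP Kit wells, with -0.38 for its endoderm difference, and Lpl at 0.049 for Mrc1. Without wells above 3 times the median total the counts were 943, 0 (31 of 589 at an unadjusted p under 0.05), 466 and, at the A1/A2 endoderm gate, 800. Abca1 was then at 0.50 outside the gate, 0.33 against EMP Kit wells and -1.15 at the A1/A2 endoderm gate, Apoe at 0.35 outside the gate, 0.35 against EMP Kit wells and -0.95 for its endoderm difference, and Fabp5 at -1.37 for that difference; the Mrc1 split could not be fitted. Lpl, given without a test, ranged from 2.62 to 4.27 for A1/A2 over EMP libraries, from 1.28 to 3.42 for Cx3cr1 over Kit wells and from 4.98 to 5.51, leaving out a library, against EMP Kit wells.

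DESeq2 called 140 genes between Cx3cr1 and Kit wells, where edgeR called 433, 16 for Mrc1 (29 in edgeR) and 85 for the endoderm difference (152 in edgeR). For Mrc1 the count was 112 with no filter on low counts and 44 with library totals. With the gate at the mean of Apoa1 the counts were 96 (Cx3cr1 against Kit), 44 (Mrc1) and 432 (endoderm difference), and Fabp5 was at -0.30 for Cx3cr1 against Kit, Fabp3 at 0.039 in A1/A2 and 1.76 in EMP endoderm wells, and Apoe at -0.087 for its endoderm difference. With the endoderm wells added, Lpl was at 0.12 and Abca1 at -0.11 for Mrc1; without the well with most of its transcripts Abca1 was at -0.24. No sign changed under another scaling.

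Leaving out 1 library at a time gave 184 to 338 calls for Cx3cr1 against Kit wells, 12 to 66 for Mrc1 and 91 to 238 for the endoderm difference. Fold changes that changed sign then ranged from -0.24 to 0.16 (Lpl, Mrc1), -0.31 to 0.59 (Abca1, Mrc1), -0.40 to 0.056 (Fabp3, EMP endoderm) and -0.084 to 0.36 (Fabp5, endoderm difference), and share differences from -0.734 to 1.04 percentage points (Fabp5) and -0.228 to 1.07 (Abca1). Not thinned, the share differences were -8.29 points for Plin2, -2.53 for Fabp3 and -17.3 for Abca1, and at 2000 transcripts -2.11 for Abca1.

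The labels do not say whether the replicate numbers pair the A1/A2 with the EMP libraries. The correlations of same-numbered libraries were 0.010, 0.150, 0.012 and 0.177, against -0.316 to 0.143 for libraries with different numbers. These values do not settle whether the numbers pair them. With the number as a replicate block, 3339 genes were called between A1/A2 and EMP libraries (3008 without) and 2338 between A1/A2 Cx3cr1 and EMP Kit wells (2431 without). Without the library block the counts were 8 for Mrc1 and 55 for the endoderm difference, Abca1 was at -0.084 for Mrc1 and Fabp3 at 0.19 in EMP endoderm wells.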
